A study of Mus musculus with 9 samples.

Results

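Genes that join beta cells to each other are described here in the islets of mice whose beta cells lack *Raptor*. There are 8 of them, *Gjd2*, *Gja1* and *Gjc1* of the gap junctions, the cadherins *Cdh1* and *Cdh2*, the catenins *Ctnnb1* and *Ctnnd2*, and the adhesion molecule *Ncam1*. They were read through the probe sets of an Affymetrix mouse genome array that the platform annotation pairs with a single gene symbol, when that symbol was one of the 8, which gave 25 of the 34945 probe sets with a single gene. At the level of genes they were 8 of 18193, and all 8 were among the 13644 genes tested after the dimmest genes had been left out. The rule that picks their probe sets uses gene names and no signal.

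Islet RNA was compared between βRapKO (here KO) and wild-type (WT) male mice at 8 weeks of age. KO mice carried *Raptor* flox/flox together with RIP-Cre, a Cre recombinase under the rat insulin promoter, and WT mice were *Raptor* flox/flox littermates with no Cre. *Raptor* (symbol *Rptor*) encodes a scaffold of mTORC1, the kinase complex that links nutrient supply to cell growth. Each of the 5 WT and 4 KO arrays held RNA pooled from the islets of 5 animals. The labels give the strain as C57BL/6, whereas the methods give a mixed background for the Cre line. Deletion and presence of Cre cannot be told apart in this design. The alpha, delta, stromal, vascular and nerve cells of an islet preparation are not the intended target of this Cre. Whether they keep *Raptor* was not measured in these bulk islets.

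Beta cells in an islet fire together because gap junctions pass current and small molecules from cell to cell. The channel that does this in rodent beta cells is built from connexin 36, the product of *Gjd2*, whereas connexin 43 (*Gja1*) and connexin 45 (*Gjc1*) are best known from muscle, vessel and connective tissue cells. E-cadherin (*Cdh1*) and N-cadherin (*Cdh2*) hold neighbouring endocrine cells together through calcium-dependent contacts, and their tails are tied to the actin skeleton by catenins. NCAM, encoded by *Ncam1*, is an immunoglobulin-type adhesion molecule of endocrine and nerve cells that takes part in the sorting of islet cell types.

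Values are log2 signals as deposited, given as mean ± SD over pools, and differences are KO minus WT on the log2 scale with their SE and 95% confidence interval. A gene was represented by its brightest probe set. The other probe sets of the 8 genes are given as well, some of *Ncam1* only as a range. Those of related genes are given only in part. Signals were not compared between probe sets, because each probe set has its own brightness. The brightest *Rptor* probe set read 9.22 to 9.71 on the WT arrays and 8.48 to 9.21 on the KO arrays. The groups did not overlap, but the margin was narrow. The difference was -0.72 ± 0.17 (SE) (limma adjusted p = 0.0410 over genes and 0.134 over all probe sets). The other 2 *Rptor* probe sets were dim, with differences of -0.41 and 0.65. The *Rptor* call over genes was kept in only 6 of 17 alternative settings. Among the fits that left out 1 array, it was kept only in those without WT replicate 4 or KO replicate 3. Where the probe sets lie relative to the deleted part of the gene was not known here. The 8 tested beta cell markers had a lower mean in KO islets, by 0.62 on the log2 scale, and the means of stromal, endothelial, Schwann, delta and ductal markers were higher. Each of these 6 calls was lost without WT replicate 1, 2, 3 or 4 or KO replicate 1. Leaving out an array allows fewer splits and so raises the smallest possible p. For most of them the loss therefore does not show that the call rests on those arrays. This does not cover the stromal and ductal means without KO replicate 1. Their exact permutation p was 0.0357, above the smallest possible, 0.0179. The ductal and delta calls held in only 2 and 4 of 10 alternatives, and the delta marker *Sst* had a difference of -0.039. Its WT mean was 15.2, near the highest value in the data, 15.6, where signals can be compressed.

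The upstream sequences of the gap junction genes are shown because *Gjd2* was the gene of the 8 that fell, and *Gja1* is the connexin with the most probe sets here. Each run holds the 250 bases before the annotated start in RefSeq's GRCm38.p6 annotation, read 5′ to 3′ along the gene. Capitals mark the E-box, CANNTG, and TGACG, the core of the cAMP response element, each on either strand. CANNTG is a wide pattern, and repressors of the Snail and Zeb families bind only some forms of it. The runs lie at chr2:114013620-114013869 on the minus strand for *Gjd2* and chr10:56377050-56377299 on the plus strand for *Gja1*.
Gjd2: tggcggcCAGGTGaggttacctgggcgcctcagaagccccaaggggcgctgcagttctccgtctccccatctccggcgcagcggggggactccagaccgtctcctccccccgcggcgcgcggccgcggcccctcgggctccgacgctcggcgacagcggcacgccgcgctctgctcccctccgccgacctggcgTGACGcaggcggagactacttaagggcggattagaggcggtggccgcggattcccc
Gja1: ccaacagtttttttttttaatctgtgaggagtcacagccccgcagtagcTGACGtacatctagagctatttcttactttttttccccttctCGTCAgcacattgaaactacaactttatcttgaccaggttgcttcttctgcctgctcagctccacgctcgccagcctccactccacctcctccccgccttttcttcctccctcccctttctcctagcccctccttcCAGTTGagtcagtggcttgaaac

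The *Gjd2* window was 74.0% G and C, with 1 E-box (CAGGTG) 243 to 238 bases before the start and 1 TGACG 56 to 52 bases before it. It also held 1 GC box, GGGCGG, which is not marked. The *Gja1* window was 50.0% G and C and held 1 E-box (CAGTTG) 23 to 18 bases before the start, 2 copies of TGACG, 1 of them on the other strand, and 0 GC boxes. These letters are common: among 32841 promoter windows of the same length, 66.2% held an E-box, 17.8% held TGACG and 32.7% held GGGCGG. None of the motifs overlapped another in either window. A match of letters is a description of the sequence and says nothing about binding.

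*Gjd2*, the connexin of beta cell coupling, was the only one of the 8 genes to pass the test, and it fell. Its brightest probe set, 1435297_at, read 13.30, 13.29, 13.25, 13.24 and 13.22 on the 5 WT arrays and 12.41, 12.47, 12.37 and 12.58 on the 4 KO arrays. All KO arrays lay below all WT arrays, and the arrays of each group were close together. The means were 13.26 ± 0.035 (SD, n = 5) and 12.46 ± 0.090 (SD, n = 4), a difference of -0.80 ± 0.076 (SE) with an interval from -0.97 to -0.63, which is 1.74-fold lower (limma adjusted p = 0.000909 over all genes). In the fit over all single-gene probe sets the same probe set passed as well (limma adjusted p = 0.0109), although not without KO replicate 1 (limma adjusted p = 0.0528) or KO replicate 3 (limma adjusted p = 0.0510). In bulk islets, fewer beta cells and less transcript per beta cell cannot be told apart. The beta cell marker mean moved the same way, from 13.84 to 14.02 in WT to 13.23 to 13.42 in KO islets. Of its 8 tested markers 5 were lower and 0 higher. Those not called were *Ins2* (-0.053) and *Iapp* (-0.12), both with overlapping groups, and *G6pc2* (-0.24), without overlap. The measured fall was thus not shared evenly by the markers. *G6pc2* and *Iapp* had WT means of 15.1 and 15.3, near the highest value in the data, 15.6, where signals can be compressed. *Ins2* had a WT mean of 14.2, below that of *Slc2a2* (14.6), which fell. The part of the marker fall in the *Gjd2* difference was not tested.

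The second *Gjd2* probe set did not pass the test. This dimmer set, 1423019_at, read 10.97, 11.14, 9.58, 10.96 and 9.30 on the WT arrays and 9.52, 10.80, 10.51 and 8.67 on the KO arrays. The groups overlapped, and arrays of the same group lay over a log2 unit apart. The difference was -0.52 ± 0.57 (SE), with an interval from -1.82 to 0.79 (limma adjusted p = 0.778), an interval that holds both 0 and the value of the brighter set. When the 2 probe sets were averaged into 1 value for the gene, the difference was -0.66 and the call was lost (limma adjusted p = 0.281).

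**Figure D1:**
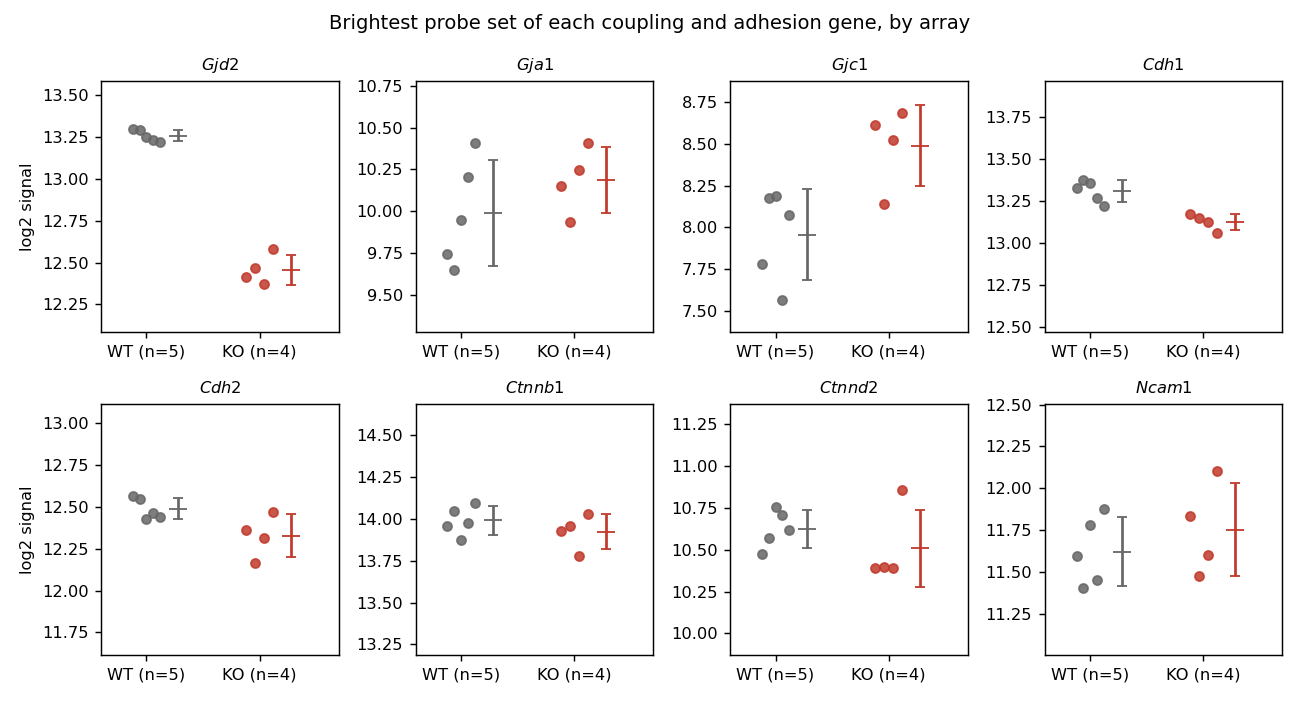
Log2 signal of the brightest probe set of each of the 8 genes, by group. Each point is 1 array (5 WT, 4 KO), and the bars give the mean and SD. All panels span the same log2 range around their own centre. The groups do not overlap for *Gjd2* and, by a narrow margin, for *Cdh1*.

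The 3 tested genes whose pattern over the 9 arrays was most like that of *Gjd2* were *Pclo*, *Slc30a8* and *Svip*. Likeness was measured as the root mean square difference over the 9 arrays after the mean of each gene had been subtracted, and it was 0.0651, 0.0674 and 0.0704 on the log2 scale. *Pclo*, the gene of the presynaptic scaffold piccolo, had a difference of -0.83. *Slc30a8*, which encodes the zinc transporter of insulin granules and is itself one of the beta cell markers used here, had -0.79. *Svip*, whose product binds the ATPase VCP, had -0.76. By RT-PCR the authors reported *Pclo* as not changed, unlike its array value here, and *Gjd2* and *Slc30a8* as decreased. The likeness includes the difference between the groups, so genes that fell by a like amount come first.

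*Gja1*, encoding connexin 43, did not pass the test in any of its 6 probe sets. All 6 differences were positive over the 9 arrays, but those of 2 sets changed sign when 1 array was left out. The brightest, 1437992_x_at, read 9.75, 9.65, 9.95, 10.20 and 10.41 on the WT arrays and 10.15, 9.94, 10.25 and 10.41 on the KO arrays. The groups overlapped almost wholly, with a difference of 0.20 ± 0.17 (SE) and an interval from -0.20 to 0.59 (limma adjusted p = 0.574). Another set, 1415800_at, had no overlap. It read 9.37, 9.40, 9.16, 9.34 and 9.31 on the WT arrays and 9.73, 10.04, 9.75 and 9.69 on the KO arrays, a difference of 0.49 ± 0.12 (SE) that missed the threshold over all probe sets (limma adjusted p = 0.115). It passed in 1 of 13 alternatives, the variance trend (limma adjusted p = 0.0301).

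A further *Gja1* set, 1438945_x_at, also separated the groups, but barely. It read 8.72, 8.43, 8.94, 8.47 and 9.12 on the WT arrays and 9.17, 9.26, 9.14 and 9.14 on the KO arrays, and the highest WT array lay just under the lowest KO array. Its difference was 0.44 ± 0.16 (SE) (limma adjusted p = 0.295). The remaining sets, 1438650_x_at, 1438973_x_at and 1415801_at, had differences of 0.11, 0.13 and 0.37 with overlapping groups. The difference of 1438973_x_at was -0.028 without KO replicate 1, and that of 1415801_at was -0.60 without WT replicate 3 and -0.084 without KO replicate 2. Probe sets with the suffix _x_at hold probes that can also bind other transcripts.

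*Gjc1*, encoding connexin 45, had the largest positive difference of the 8 genes and did not pass the test. Its brightest probe set, 1449094_at, read 7.78, 8.18, 8.19, 7.57 and 8.07 on the WT arrays and 8.61, 8.14, 8.52 and 8.68 on the KO arrays. KO replicate 2 lay within the WT range, and the other 3 KO arrays lay above it. The means were 7.96 ± 0.27 (SD, n = 5) and 8.49 ± 0.24 (SD, n = 4), a difference of 0.53 ± 0.17 (SE) with an interval from 0.15 to 0.91 (limma adjusted p = 0.0971). The dim set 1447787_x_at read 2.59 to 3.60 in WT and 2.92 to 7.11 in KO islets, where KO replicate 2 was the highest array although it was the lowest KO array in the brighter set.

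Marker means of cell types other than beta cells are given beside these values. The mean of the 18 stromal markers lay between 7.82 and 8.64 on the WT arrays and between 9.09 and 9.59 on the KO arrays, with 9 of 18 markers higher. The mean of the 16 endothelial markers lay between 9.06 and 9.18 in WT and between 9.39 and 9.65 in KO islets, with 1 of 16 higher. Both means were separated without overlap (exact two-sided permutation test, p = 0.00794, the smallest that 126 splits allow, adjusted p = 0.0190 over 12 cell types). The Schwann and glial mean was higher by 0.91, with 1 of its 6 markers called, *Cdh19*, and with *Sox10* at -0.052. The delta mean was higher by 0.40 over 2 tested markers. These were *Hhex* at 0.84 (limma adjusted p = 0.0155) and *Sst* at -0.039 with overlapping groups (limma adjusted p = 0.850). The ductal mean was higher by 0.92 with 0 of its 3 markers called by limma, although *Krt19* had an unadjusted p of 0.00992 (limma), and the neuronal mean differed by -0.095 (exact permutation p = 0.659). The part of these cells in the *Gja1* and *Gjc1* values was not tested.

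**Figure D2:**
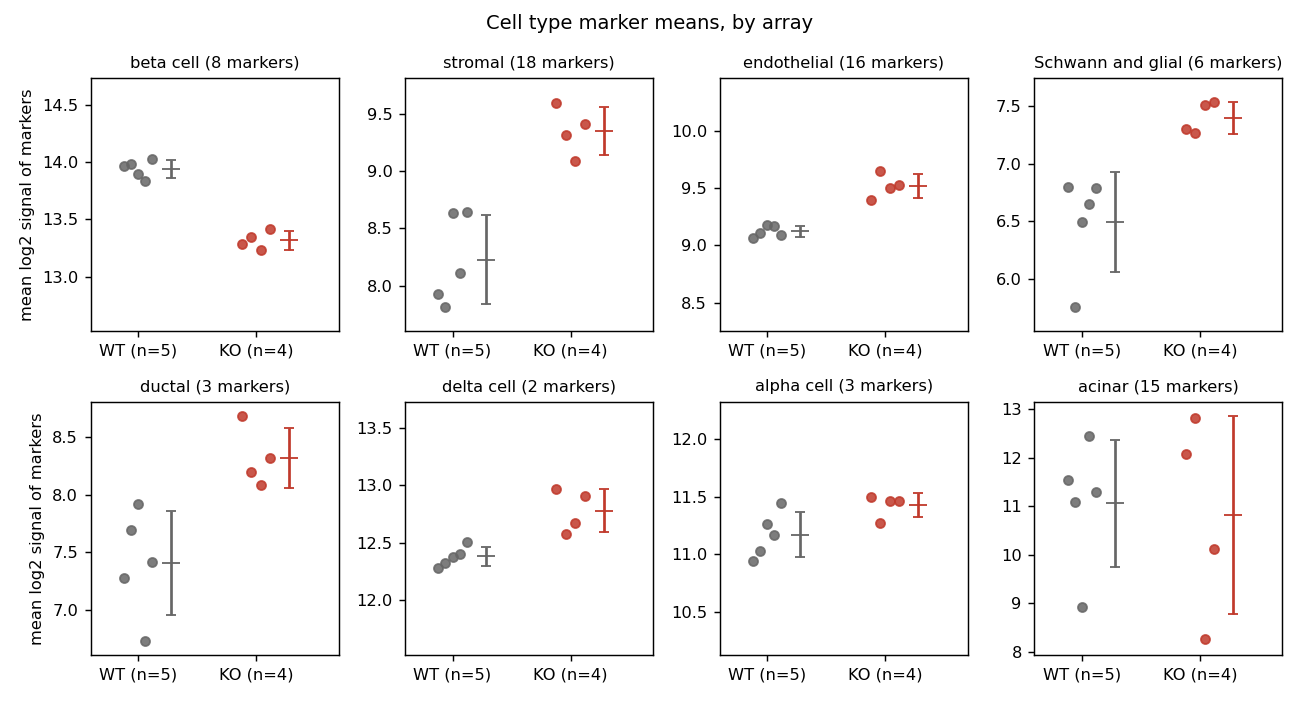
Mean log2 signal of the tested markers of 8 cell types on each array, with the group mean and SD. Each panel has its own log2 range. The beta cell mean is lower on all 4 KO arrays, the stromal, endothelial, Schwann, ductal and delta means are higher on all 4, and the acinar mean spreads widely in both groups.

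Neither cadherin passed the test. *Cdh1*, the E-cadherin gene, is read by a single probe set here, 1448261_at, with 13.33, 13.38, 13.36, 13.27 and 13.22 on the WT arrays and 13.17, 13.15, 13.12 and 13.06 on the KO arrays. All KO arrays lay below all WT arrays, but the gap between the nearest of them was smaller than the range within either group. The means were 13.31 ± 0.065 (SD, n = 5) and 13.13 ± 0.049 (SD, n = 4), and the difference of -0.18 ± 0.074 (SE), or 1.14-fold lower, did not pass the test (limma adjusted p = 0.188). Its interval reached from -0.35 to -0.017 before adjustment. In the fit over all single-gene probe sets the interval was wider, from -0.40 to 0.029, and held 0.

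*Cdh2*, the N-cadherin gene, had 2 probe sets with small negative differences. The brighter, 1418815_at, read 12.56, 12.55, 12.43, 12.46 and 12.44 on the WT arrays and 12.36, 12.17, 12.32 and 12.47 on the KO arrays. KO replicate 4 lay within the WT range and the other 3 below it, with a difference of -0.16 ± 0.087 (SE) and an interval from -0.36 to 0.036 (limma adjusted p = 0.322). The other, 1449244_at, read 11.32 to 11.65 in WT and 11.39 to 11.58 in KO islets, a difference of -0.036 ± 0.12 (SE). For this second set all KO arrays lay inside the WT range.

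*Ctnnb1* encodes beta-catenin, which ties cadherins to alpha-catenin and also carries the Wnt signal to the nucleus. Its brightest probe set, 1420811_a_at, read 13.96, 14.05, 13.87, 13.98 and 14.09 on the WT arrays and 13.93, 13.96, 13.78 and 14.03 on the KO arrays. The groups overlapped, with a difference of -0.067 ± 0.086 (SE) and an interval from -0.26 to 0.13 (limma adjusted p = 0.714). The highest log2 value in the data was 15.6, and signals near the bright end of an array can be compressed.

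The other 2 *Ctnnb1* probe sets had positive differences with wide errors. The set 1450008_a_at read 11.91, 11.92, 11.25, 12.27 and 11.04 on the WT arrays and 11.91, 12.25, 12.23 and 11.38 on the KO arrays, a difference of 0.26 ± 0.30 (SE). The set 1430533_a_at read 9.90, 9.97, 8.17, 10.06 and 8.16 on the WT arrays and 9.35, 10.57, 10.15 and 8.27 on the KO arrays, a difference of 0.34 ± 0.62 (SE). In both sets the same 3 arrays, WT replicates 3 and 5 and KO replicate 4, were the lowest of the 9, whereas the brightest set showed no such drop. The dimmer *Gjd2* set was also low on these arrays and on KO replicate 1.

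**Figure D3:**
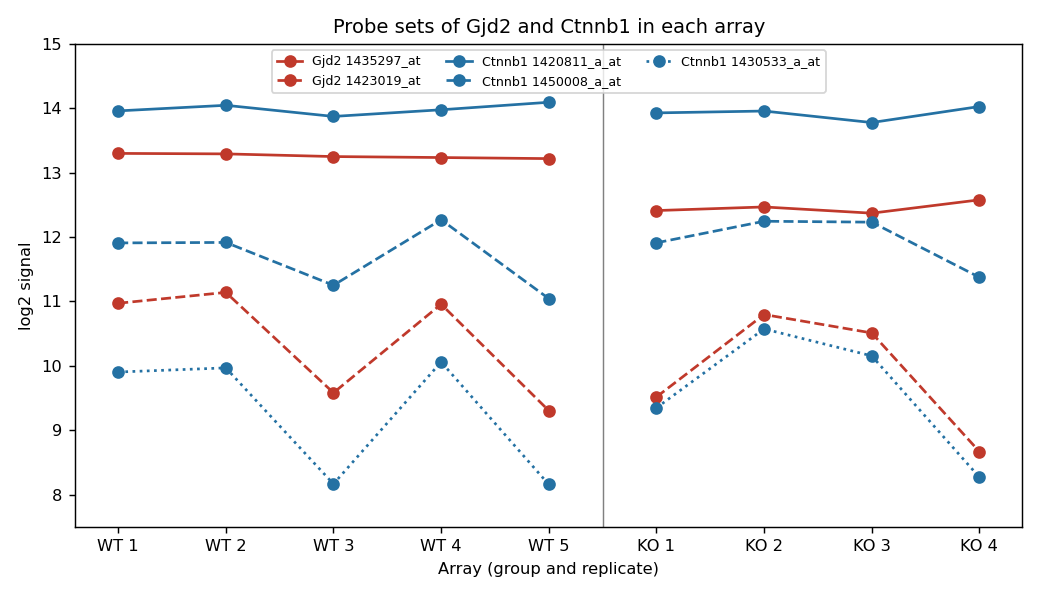
Log2 signal of the 2 *Gjd2* and 3 *Ctnnb1* probe sets on each of the 9 arrays. Solid lines are the brightest set of each gene, dashed and dotted lines the dimmer ones, and lines join arrays only to guide the eye. The dimmer sets are low on WT replicates 3 and 5 and KO replicate 4, whereas the brightest sets are level within a group.

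*Ctnnd2* encodes delta-catenin, a neural relative of p120-catenin that binds the cadherin tail near the membrane. Its brightest probe set, 1422592_at, read 10.47, 10.57, 10.76, 10.71 and 10.62 on the WT arrays and 10.39, 10.40, 10.39 and 10.85 on the KO arrays. KO replicates 1 to 3 lay just below the WT range, and KO replicate 4 lay above it. The difference was -0.12 ± 0.12 (SE), with an interval from -0.39 to 0.16 (limma adjusted p = 0.641).

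The second *Ctnnd2* set, 1456116_at, read 9.25, 9.21, 9.46, 8.66 and 9.66 on the WT arrays and 8.69, 8.74, 8.84 and 8.71 on the KO arrays. The KO arrays were close together and lay below all WT arrays other than WT replicate 4, which was lower than each of them. The means were 9.25 ± 0.37 (SD, n = 5) and 8.74 ± 0.065 (SD, n = 4), a difference of -0.51 ± 0.20 (SE) that did not pass the test over all probe sets (limma adjusted p = 0.320).

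*Ncam1* had 7 probe sets, none of which passed the test. The brightest, 1426865_a_at, read 11.60, 11.40, 11.78, 11.45 and 11.88 on the WT arrays and 11.83, 11.47, 11.60 and 12.10 on the KO arrays. The groups overlapped, with a difference of 0.13 ± 0.16 (SE) and an interval from -0.22 to 0.48 (limma adjusted p = 0.687). The sets 1426864_a_at and 1439556_at both had differences of 0.22, with SEs of 0.13 and 0.16, and overlapping groups. The other 4 sets were dimmer and had negative differences, from -1.14 to -0.090, with SEs between 0.46 and 0.92.

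**Figure D4:**
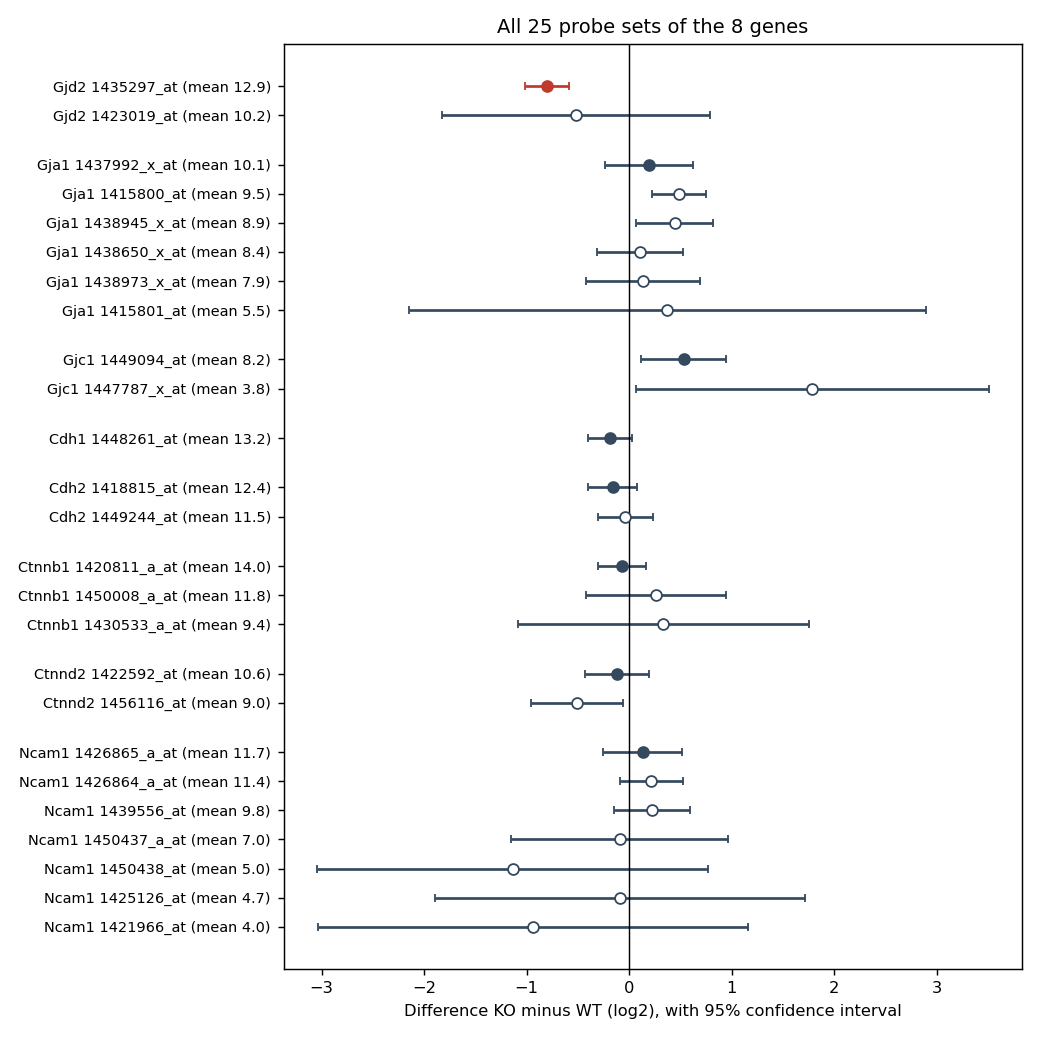
Difference between KO and WT islets (log2, KO minus WT) for all 25 probe sets of the 8 genes, with the 95% confidence interval from the fit over all single-gene probe sets. Filled points are the brightest set of each gene, the red point passed the test, and the mean signal over the 9 arrays is given beside each name. Intervals widen for dim probe sets, and 12 of the 25 differences are negative.

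Counted together, 1 of the 8 genes passed the test, where 6.30% of all 13644 genes did, and 2 of the 8 (*Gjd2* and *Cdh1*) had groups that did not overlap, where 12.5% of all genes had. With so few genes these counts say nothing about the genes as a group. At an unadjusted p under 0.05, 3 of the 8 genes passed (*Gjd2*, *Gjc1* and *Cdh1*), where 21.8% of all genes did. Of the 25 probe sets, 1 passed the adjusted test, in the direction of a fall, where 0.970% of all single-gene probe sets passed, 0.498% lower and 0.472% higher. An unadjusted p under 0.05 was found for 6 of the 25 (12.9% of all), and 4 had groups without overlap (7.58% of all), namely 1 of *Gjd2*, 2 of *Gja1* and 1 of *Cdh1*. Probe sets of 1 gene read the same RNA and are not independent. The median difference was -0.092 over the 8 genes and 0.11 over their 25 probe sets, beside 0.040 over all genes and 0.025 over all probe sets. The 7 genes that did not pass had intervals that lay between -0.39 and 0.91.

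The 8 genes differed in how closely the arrays of a group agreed. The within-group SD was 0.059 for *Cdh1* and 0.065 for *Gjd2*, 0.094 for *Ctnnb1* and 0.096 for *Cdh2*, beside a median of 0.235 over all genes and 0.129 over the brightest 10% of genes. It was 0.173 for *Ctnnd2*, 0.239 for *Ncam1*, 0.260 for *Gjc1* and 0.272 for *Gja1*. A change of a given size was therefore easier to detect in the first 4 genes than in the last 4.

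Other genes of the same junctions give the surroundings of these values. The 9 lists of related genes held 123 genes on the array, of which 89 were tested, and 5 of these rose and 3 fell (2.63% of all genes fell and 3.67% rose). Of the other connexins and pannexins, 3 of 14 were tested and 0 passed the limma test (median difference 0.11), with *Panx1*, a large-pore membrane channel, closest at -0.67 ± 0.21 (SE) (limma adjusted p = 0.101).

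Among 10 tested cadherins outside the pair above, 1 rose and 1 fell, and the median difference was 0.48. *Cdh7*, a classical cadherin of type II, fell from 8.91 ± 0.25 (SD, n = 5) to 7.88 ± 0.12 (SD, n = 4), or 2.05-fold (limma adjusted p = 0.00428). Its 3 probe sets had differences of -1.03, -1.04 and -1.89, all below 0. *Cdh19*, a cadherin of Schwann cells that is also among the glial markers, rose 2.39-fold (limma adjusted p = 0.0139), though not without KO replicate 1 (difference 1.17, limma adjusted p = 0.0514).

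Among 14 tested catenins and other genes of the adherens junction, 1 fell, with a list median of 0.11. This was *Pkp4*, a catenin of the plakophilin group, from 12.50 ± 0.13 (SD, n = 5) to 11.96 ± 0.069 (SD, n = 4), or 1.45-fold (limma adjusted p = 0.0114). Its other probe set gave -0.74. Of 15 tested genes of beta-catenin turnover, its partners and its Wnt targets, 0 passed the limma test and 4 had positive differences, with a median of -0.065. *Gsk3a*, a kinase that marks beta-catenin for breakdown, was closest at -0.39 ± 0.11 (SE) (limma adjusted p = 0.0773).

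Tight junction genes had 2 rises among 19 tested and a median of 0.17. *Jam2*, a junctional adhesion molecule of endothelium, rose 1.60-fold (limma adjusted p = 0.0181), and the call was lost without KO replicate 1 (limma adjusted p = 0.0528) and when its 5 probe sets, which differ in sign, were averaged. *Cldn2*, a pore-forming claudin, rose 1.80-fold (limma adjusted p = 0.0460), a call kept in 1 of 16 alternatives, the fit without WT replicate 3 (limma adjusted p = 0.0287). Among 18 other immunoglobulin adhesion genes, *Chl1*, a relative of the neural molecule L1, rose from 7.77 ± 0.63 (SD, n = 5) to 9.22 ± 0.27 (SD, n = 4), or 2.74-fold (limma adjusted p = 0.0291). That call was kept in 8 of 17 alternatives and lost without WT replicate 4 or KO replicate 1, 3 or 4 (limma adjusted p from 0.0557 to 0.0858). It was also lost with median centring, no filter, averaged probe sets, the methods' t-test and the replicate block. The dimmer *Chl1* probe sets had differences of 0.15, 1.58 and -0.49. The median of these 18 was 0.26, and 15 had positive differences.

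Of 3 tested neurexins and neuroligins, with a median of -0.021, *Nrxn3* fell in its brightest probe set by 1.51 on the log2 scale (limma adjusted p = 0.0456). The dimmer sets of the same gene had positive differences of 1.24, 1.38, 0.64 and 1.86, and no *Nrxn3* set passed the test over all probe sets. The call was kept in 3 of 16 alternatives. Of the fits that left out 1 array, only that without KO replicate 1 kept it (limma adjusted p = 0.0272), and the others gave adjusted p from 0.0576 to 0.102. Of 5 tested repressors of *Cdh1* or *Gjd2*, 1 rose, with a list median of 0.21. This was *Zeb2*, which represses *Cdh1* through E-boxes, from 6.93 ± 0.19 (SD, n = 5) to 7.58 ± 0.21 (SD, n = 4), or 1.57-fold (limma adjusted p = 0.0275). That call was kept in 8 of 16 alternatives and lost without WT replicate 4 or KO replicate 1, 2 or 3 (limma adjusted p from 0.0529 to 0.0729). It was also lost with no filter, averaged probe sets, a variance trend and the replicate block. Both polysialyltransferases, the enzymes that add polysialic acid to NCAM, were tested and 0 passed the limma test (median 0.060), with *St8sia4* at 0.32 ± 0.095 (SE) (limma adjusted p = 0.0879). The stromal, endothelial and Schwann marker means were higher in KO islets beside the rises of *Cdh19*, *Jam2*, *Chl1* and *Zeb2*, and their part in these was not tested.

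**Figure D5:**
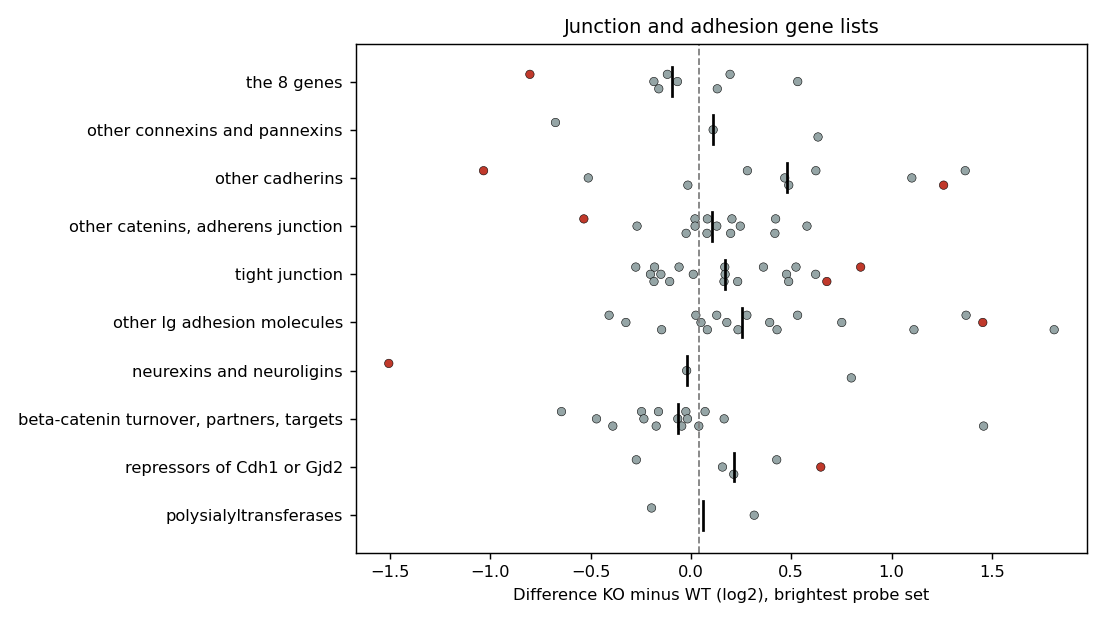
Difference between KO and WT islets (log2, KO minus WT) of every tested gene in the 8 genes and in 9 lists of related genes. Each point is 1 gene by its brightest probe set, red points passed the test, short vertical bars are list medians and the dashed line is the median of all 13644 genes. Red points lie on both sides of 0.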

How the data were processed

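The authors hybridised biotin-labelled cRNA from pooled islets to 9 arrays and deposited 1 log2 signal per probe set and array. Genespring is the software their methods name. How probes were summarised and arrays scaled is not given in the sources used here, but after removal of the log the trimmed means of the 9 arrays ranged only from 497.1 to 497.7, and 43 to 107 values per array sat at a floor of log2 0. Values were used as deposited. Of 45037 probe sets, 34945 were paired with 1 gene, 932 with several and 9160 with none here. Groups and replicate numbers came from the sample titles. No 2 arrays were duplicates (root mean square difference 1.19 to 1.41 over 36 pairs).

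Each gene took its brightest probe set by the mean of the 9 arrays, and the dimmest 0.25 of genes (mean up to 5.51) was dropped. The groups were fitted in R 4.3.3 with limma 3.58.1 (lmFit, eBayes, two-sided), Benjamini-Hochberg adjusted over all genes, at a threshold of 0.05, and again over all single-gene probe sets with no filter. Of the 25 probe sets, 21 lay above the level of the gene filter. Means of 12 cell type marker lists were compared by exact permutation over 126 splits of the arrays. The scripts were tested on simulated data. Named genes were the 8 members in every probe set, *Rptor*, up to 4 called genes of each related list by lowest p or otherwise the gene with the lowest p, and the 3 genes nearest in pattern to each called member. Members and lists were chosen with earlier results of these data known. The precision is limited by the number of arrays. Alternatives were median centring, quantile normalization, no filter or a filter of 0.5, averaged probe sets, the methods' t-test, a variance trend, a replicate block and leaving out each array. Upstream sequences were found for 4 of the 8 members.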

Additional observations from a re-analysis of the deposited data

Results flagged for a closer look

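In 7 of 98 sets of values, 1 for each group of arrays and probe set or marker mean, 1 array stood far from the rest of its group. Chance alone gives about 1 in 20. For *Gja1*, probe set 1415800_at read 10.04 on KO replicate 2 against 9.69 to 9.75 on the other KO arrays, and the groups remain apart without that array. The dim *Gja1* set 1415801_at read 1.49 on WT replicate 3 against 6.05 to 6.52 on the other WT arrays. The brightest *Ctnnd2* set, 1422592_at, read 10.85 on KO replicate 4 against 10.39 to 10.40 on the other KO arrays, and without that array the difference was -0.23. The dim *Ncam1* set 1421966_at read 2.05 on WT replicate 2 against 4.62 to 5.66. Among related genes, *Cldn2* read 6.15 on WT replicate 3 against 6.95 to 7.06, and *Chl1* read 6.67 on WT replicate 2 against 7.81 to 8.19. The neuronal marker mean was 8.28 on WT replicate 3 against 7.62 to 7.77 on the other WT arrays. No cause was tested.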

How the results depend on the processing

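*Gjd2* stayed past the threshold in 15 of 17 alternatives, including all 9 fits that left out 1 array (difference -0.84 to -0.77). The exceptions were averaged probe sets (-0.66, limma adjusted p = 0.281) and the replicate block (-0.81, limma adjusted p = 0.0542). *Gjc1* passed only with the lowest 0.5 of genes left out (0.53, limma adjusted p = 0.0459), and *Cdh1* only with the methods' t-test (-0.18, adjusted p = 0.0461). Of 136 results for the 8 genes under alternatives, 132 stayed on their side of the threshold, 2 fell short of it, 2 came to pass it and 0 reversed a call. With averaged probe sets the uncalled differences of *Ctnnb1* and *Ncam1*, counted among the 132, changed sign, to 0.18 and -0.24. In that setting the call of *Nrxn3* was lost and its difference changed sign (0.72, limma adjusted p = 0.265). The 860 called genes became 474 with arrays centred on their medians, where 45.1% of calls were rises in place of 58.3%, 452 with no filter, 317 with averaged probe sets and 372 to 800 when 1 array was left out, fewest without KO replicate 1. The 339 called probe sets became 195 with median centring, 1051 with a variance trend, 601 with the lowest 0.25 left out and 93 to 192 when 1 array was left out. The median difference of all genes was 0.040 as deposited and -0.00084 with median centring. The means of beta, stromal, endothelial, Schwann, delta and ductal markers kept their sign with arrays centred and with 1 array left out (beta -0.66 to -0.59, stromal 1.02 to 1.23). Their calls were lost without WT replicate 1, 2, 3 or 4 (each permutation p 0.0571 after adjustment) and without KO replicate 1 (0.0536 to 0.0714). Without a WT array each unadjusted permutation p was 0.0286, the smallest that the fewer splits allow. A wider separation of the groups could not have lowered it. Without KO replicate 1 the same held for the beta, delta, endothelial and Schwann means (permutation p = 0.0179), but not for the stromal and ductal means (0.0357). The ductal call was also lost without KO replicate 2, 3 or 4 (0.0714) and the delta call with median centring (0.0952).

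Replicate numbers 1 to 4 occur in both groups. The deviations of same-numbered arrays were at most weakly correlated (from -0.040 to 0.12 over genes), beside -0.11 to 0.083 for arrays with different numbers. Of these arrays, 2 of 4 WT and 2 of 4 KO arrays correlated best with their own number. The values do not settle whether the numbers pair the arrays. A replicate block over those arrays called 61 genes, 57 of them among the 860. Under that block the calls of *Rptor* (limma adjusted p = 0.0866) and of the 8 related genes called, *Cdh7*, *Cdh19*, *Pkp4*, *Jam2*, *Cldn2*, *Chl1*, *Nrxn3* and *Zeb2*, were lost too (limma adjusted p from 0.0607 to 0.176).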

Other observations

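Of the 25 member probe sets, 3 had their 3 lowest values on the same arrays, WT replicates 3 and 5 and KO replicate 4, a pattern noticed after the values were seen. They were the *Ctnnb1* sets 1430533_a_at and 1450008_a_at and the *Ncam1* set 1450437_a_at. Across the array, 1688 of 34945 single-gene probe sets (4.83%) had their 3 lowest values on those arrays, and among the brightest sets of the 13644 tested genes 278 (2.04%) had. The acinar marker mean, the most variable of the 12 cell type means, was 8.93, 11.30 and 10.13 on those 3 arrays, within the 8.28 to 12.81 seen on all arrays.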
